A study of Mus musculus with 12 samples.

Results

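The genes described here encode the proteins of the cytosolic ribosome, the particle that translates messenger RNA outside mitochondria. They were taken by name: Rpsa, Rplp0, Rplp1 and Rplp2, and every symbol that starts with Rpl or Rps followed by a digit. Kinases, binding proteins, pseudogenes and antisense genes were left out. This gave 66 of the 19505 genes tested, with Rplp2 and several other ribosomal protein genes not analysed here. They comprised 31 genes of the large subunit, 22 of the small subunit, the stalk genes Rplp0 and Rplp1, 7 paralogs (Rpl3l, Rpl7l1, Rpl10l, Rpl22l1, Rpl36al, Rpl39l and Rps27l) and 4 further copies (Rpl32l, Rpl37rt, Rps23rg1 and Rps27rt). The 55 genes that are neither paralogs nor further copies are called canonical. The rule left out 9 symbols, 6 of them kinases of the S6 kinase families. Rps4l was left out because RefSeq gives it as a transcribed pseudogene. Rpl31-ps12 was left out by its name, though RefSeq gives it as protein coding.

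Expression was measured on arrays in cells selected from mouse white matter with beads against GLAST, the astrocyte glutamate transporter encoded by Slc1a3. The mice were C57BL/6 and started a 0.2% (w/w) diet of cuprizone, a copper chelator that kills oligodendrocytes, at 8 to 12 weeks of age. GnT-IX-deficient mice were sampled after 12 weeks of diet, and wild-type mice after 0, 3 and 12 weeks. Each group had 3 biological replicates with 1 array each. GnT-IX is the glycosyltransferase encoded by Mgat5b, and the labels give neither the allele nor whether animals were pooled. All groups shared papain dissociation, a block of Fc receptors and the GLAST selection. With no untreated mice of the later ages analysed here, cuprizone and age cannot be told apart. One of a pair of RNA kits was used for each sample, and which one is not given, so kit and group cannot be told apart either.

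Values are log2 array intensities, and a difference of 1 is a doubling. Probes differ in brightness, so each gene is set only against itself. A gene is said to have risen or fallen where limma's Benjamini-Hochberg adjusted p over all 19505 genes was under 0.05. The p-values measure the spread between these samples, and the number of arrays limits the precision. In bulk samples, fewer cells of a type and less RNA per cell cannot be told apart.

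The targeted gene followed the genotype labels. Mgat5b was at 3.70, 4.19 and 4.06 in GnT-IX-deficient arrays and at 5.96, 5.88 and 5.57 in wild-type arrays at 12 weeks (log2 difference -1.82, SE 0.21, adjusted p = 0.00159). Of 10 astrocyte markers, 6 fell and 1 rose at 3 weeks, and 1 fell and 1 rose at 12 weeks. Their mean per array was 9.58, 9.30 and 9.19 at 0 weeks, 8.46, 8.87 and 8.49 at 3 weeks and 9.11, 8.76 and 9.33 at 12 weeks. The selected transporter Slc1a3 fell at 3 weeks (log2 difference -1.35, SE 0.27, adjusted p = 0.015), and its difference at 12 weeks was -1.05 (SE 0.27, adjusted p = 0.0545). The cells also carried transcripts of other types: 10 of 14 microglia and macrophage markers rose at 3 weeks and 12 of 14 at 12 weeks. Their mean per array, over replicates 1 to 3, was 5.71, 5.12 and 5.34 at 0 weeks, 8.91, 7.02 and 6.62 at 3 weeks and 7.95, 9.05 and 8.19 at 12 weeks. The means at 3 and 12 weeks do not overlap with those at 0 weeks, and their part in the time comparisons was not tested beyond the covariate fit given with them. No marker reads 0 on this scale: Tyrobp, a defining microglial gene, was at 5.39, 4.88 and 4.91 at 0 weeks, near the array medians. Of 11 endothelial markers, 4 rose at 12 weeks, and 10 were higher at an unadjusted p under 0.05, as in 8.21% of all genes. Of 10 neuronal markers 2 rose at 3 weeks. Of 10 mature oligodendrocyte markers, 1 fell at 12 weeks. At an unadjusted p under 0.05, 7 of them were lower then, beside 1336 of all 19505 genes, and their median difference was -0.825. Of 7 oligodendrocyte precursor markers, 0 were called at either time. At 3 weeks 4 of these were higher at an unadjusted p under 0.05, as in 8.81% of all genes, and at 12 weeks 0 were.

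A eukaryotic ribosome has a small subunit, which reads the messenger RNA, and a large subunit, which joins amino acids, each built from ribosomal RNA and its own set of proteins. The stalk of the large subunit recruits the elongation factors. Mammalian ribosomal protein messenger RNAs begin with a C followed by a run of pyrimidines, the terminal oligopyrimidine (TOP) motif, through which the kinase mTOR and the RNA-binding protein Larp1 control their translation together with those of several elongation factors. The arrays measure messenger RNA and not translation.

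The TOP motif is the sequence these genes are best known to share, so the annotated starts were read from RefSeq on GRCm38.p6. Of 66 members, 54 had a window around an annotated start. A C at the start followed by at least 4 pyrimidines was present in 13 of the 54 (24.1%). It was present in 427 of the 15691 tested genes that had a window (2.72%). Of 67 mitochondrial ribosomal protein genes with a window, whose products work in the mitochondrial ribosome, 0 had it. A gene was counted where any of its windows held the letters, and 9 members had several windows. Annotated starts can lie some bases away from the used start, so a window without the motif says only that these letters are not at the annotated base. The windows shown run from 30 bases before the start to 20 bases from it, 5′ to 3′ on the gene's strand, with the pyrimidine run at the start in capitals. The first 4 belong to genes that rose at 12 weeks, and the last 2, Rps6 and Rpl28, to genes that did not pass the test.
Rpl35a, chr16:33056452-33056501, plus strand: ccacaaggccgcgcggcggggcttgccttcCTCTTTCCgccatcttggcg
Rps15a, chr7:118116128-118116177, minus strand: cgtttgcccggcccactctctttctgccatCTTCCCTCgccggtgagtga
Rps18, chr17:33955646-33955695, minus strand: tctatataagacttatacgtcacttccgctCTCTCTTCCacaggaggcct
Rpl38, chr11:114668550-114668599, plus strand: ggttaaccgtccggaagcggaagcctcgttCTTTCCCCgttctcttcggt
Rps6, chr4:86857348-86857397, minus strand: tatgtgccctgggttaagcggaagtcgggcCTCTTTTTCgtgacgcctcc
Rpl28, chr7:4792935-4792984, plus strand: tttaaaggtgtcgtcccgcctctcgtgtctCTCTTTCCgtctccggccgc
All 6 share a C followed by at least 7 pyrimidines, and the set holds genes that rose and genes that did not. The letters CTTTCC lay within 50 bases of the start, on the gene's strand, in 31.5% of the members with a window. The share was 7.46% of the mitochondrial genes with a window and 5.08% of all genes with one. This word overlaps the pyrimidine run of some starts. In the 300-base window from 250 before to 50 after the start, either strand held CCGGAAG in 38.9%, 37.3% and 13.2% of the same sets, GGGCGG in 55.6%, 49.3% and 51.2%, and AAGATGGC in 7.41%, 17.9% and 3.64%. CCGGAAG was thus about as frequent in the mitochondrial set as in the cytosolic one. A match is a description of the letters only.

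After 3 weeks of cuprizone, 26 of the 66 ribosomal protein genes rose and 0 fell. Over all genes tested, 1.61% rose and 3.24% changed in either direction. The median log2 difference of the 66 was 0.69, a 1.61-fold higher level, with an interquartile range of 0.46 to 0.84, against a median of -0.02 over all genes. Of the 66, 63 lay above 0, and the values of 54 did not overlap between the groups in the higher direction, as in 10.8% of all genes. At an unadjusted p under 0.05, 53 were higher, as in 8.81% of all genes. The 3 below 0 were Rpl3l, Rpl39l and Rpl32l, none of which passed the test. The 26 were 11 of 31 large subunit genes, 11 of 22 small subunit genes, Rplp1, the paralogs Rpl36al and Rps27l, and the copy Rpl37rt.

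**Figure D1:**
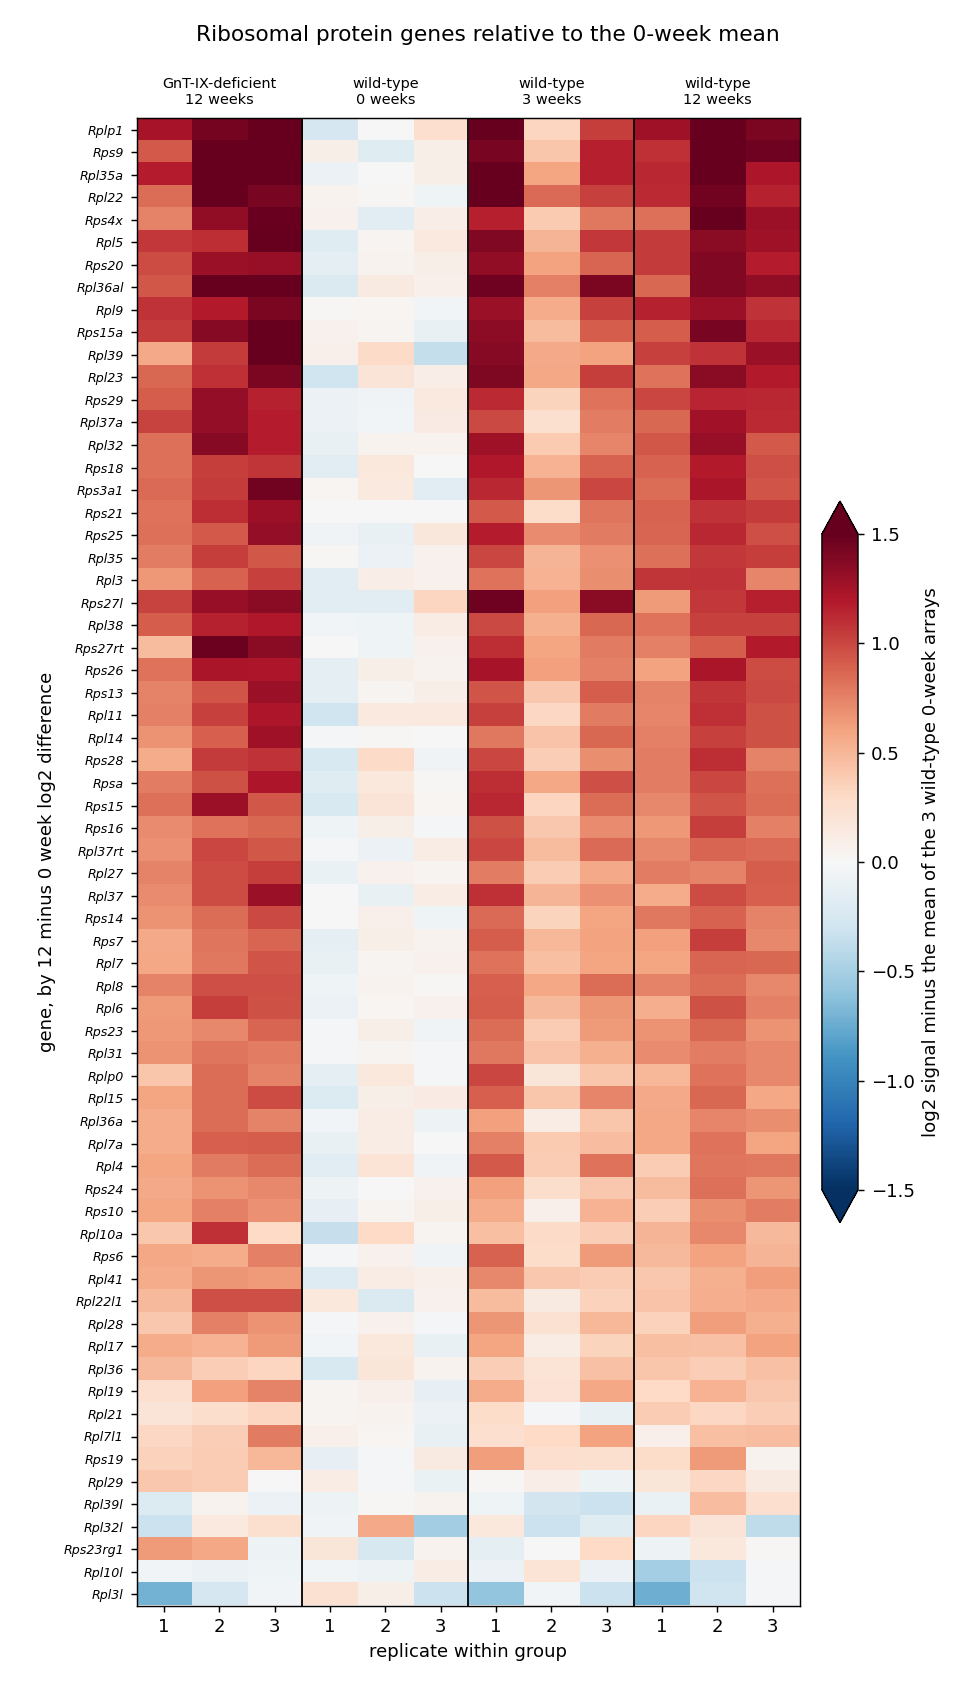
Log2 level of each of the 66 ribosomal protein genes (rows, by their 12 minus 0 week difference) in each of the 12 arrays (columns), minus that gene's mean over the 3 wild-type arrays at 0 weeks; the colour scale ends at its marked limits. Most rows are above the 0-week mean in the 9 arrays from cuprizone-fed mice, with replicate 2 at 3 weeks the palest of the wild-type ones, while Rpl3l, Rpl10l, Rpl39l, Rpl32l and Rps23rg1, at the bottom, show no such block.

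Among large subunit genes, Rpl22 changed most at 3 weeks. Rpl22 encodes an RNA-binding protein at the surface of the large subunit. It was at 9.04, 8.39 and 8.56 in the 3-week arrays and at 7.59, 7.56 and 7.47 in the 0-week arrays (log2 difference 1.12, SE 0.21, adjusted p = 0.00993). Every 3-week array lay well above every 0-week array. Rpl35a, mutated in some people with Diamond-Blackfan anaemia, an inherited failure of red cell production, was at 9.89, 8.95 and 9.52 at 3 weeks and at 8.27, 8.35 and 8.44 at 0 weeks (log2 difference 1.10, SE 0.22, adjusted p = 0.0159). Rpl5, which with Rpl11 can bind and inhibit Mdm2, was at 10.49, 9.61 and 10.16 at 3 weeks and at 8.91, 9.14 and 9.24 at 0 weeks (log2 difference 0.99, SE 0.22, adjusted p = 0.0237). In both genes replicate 2 was the lowest of the 3-week arrays and still above all 0-week arrays. Rpl23, another protein able to bind Mdm2, rose by 1.00 (SE 0.23, adjusted p = 0.0288) and Rpl9 by 0.96 (SE 0.19, adjusted p = 0.012). Rpl3, Rpl6, Rpl8, Rpl31, Rpl35 and Rpl38 also rose, by 0.59 to 0.79.

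Among small subunit genes, 11 of 22 rose, with a median difference of 0.75 over the 22, beside 0.68 over the 31 large subunit genes; the difference between the subunits was not tested. Rps9, whose protein lies at the entry of the messenger RNA channel, was at 9.06, 8.06 and 8.81 at 3 weeks and at 7.73, 7.46 and 7.73 at 0 weeks (log2 difference 1.00, SE 0.25, adjusted p = 0.0432). Rps20 was at 10.42, 9.69 and 9.96 at 3 weeks and at 8.95, 9.14 and 9.18 at 0 weeks (log2 difference 0.93, SE 0.20, adjusted p = 0.0183). Neither gene overlapped between the groups. Rpsa, whose protein is a small subunit component also known as the laminin receptor precursor, was at 11.61, 11.09 and 11.47 at 3 weeks and at 10.33, 10.66 and 10.53 at 0 weeks (log2 difference 0.88, SE 0.18, adjusted p = 0.0174). Rps3a1, Rps13, Rps15a, Rps16, Rps18, Rps25, Rps26 and Rps29 rose by 0.69 to 0.93. Rps6, the substrate of the S6 kinases, was at 10.29, 9.68 and 10.04 at 3 weeks and at 9.39, 9.47 and 9.35 at 0 weeks; the groups did not overlap, and the difference of 0.60 did not pass the test (SE 0.17, adjusted p = 0.0734).

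Of the stalk genes, Rplp1, which encodes an acidic protein that contacts elongation factors, rose. It was at 10.53, 9.35 and 10.07 at 3 weeks and at 8.78, 9.03 and 9.29 at 0 weeks (log2 difference 0.95, SE 0.24, adjusted p = 0.0476). Rplp0, the base of the stalk, was at 7.69, 6.87 and 7.10 at 3 weeks and at 6.54, 6.85 and 6.67 at 0 weeks (log2 difference 0.53, SE 0.21, adjusted p = 0.209). Its replicate 2 at 3 weeks was barely above the highest 0-week array.

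The number of calls at 3 weeks turned on single arrays, while the median did not. It was 1 without replicate 1 at either time, 7 and 12 without replicates 2 and 3 at 0 weeks, 5 without replicate 3 at 3 weeks and 39 without replicate 2 at 3 weeks, with the median between 0.56 and 0.84. Rpl22 was the 1 gene that passed in all 6 of these fits. Calls over all genes in these fits are not given here, so the counts cannot be set against a share of all genes.

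After 12 weeks, 44 of the 66 rose and 0 fell, where 2.11% of all genes tested rose and 2.64% changed in either direction. The median log2 difference was 0.81, a 1.75-fold higher level, with an interquartile range of 0.58 to 1.00, against -0.01 over all genes. Of the 66, 64 lay above 0 and 59 did not overlap in the higher direction, as in 10.8% of all genes. At an unadjusted p under 0.05, 58 were higher, against 8.21% of all genes. The 2 below 0 were Rpl3l and Rpl10l, with no call. The 44 were 20 of 31 large subunit genes, 19 of 22 small subunit genes, Rplp1, Rpl36al and Rps27l, and the copies Rpl37rt and Rps27rt. All 26 genes called at 3 weeks were among them; both comparisons share the 0-week arrays.

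**Figure D2:**
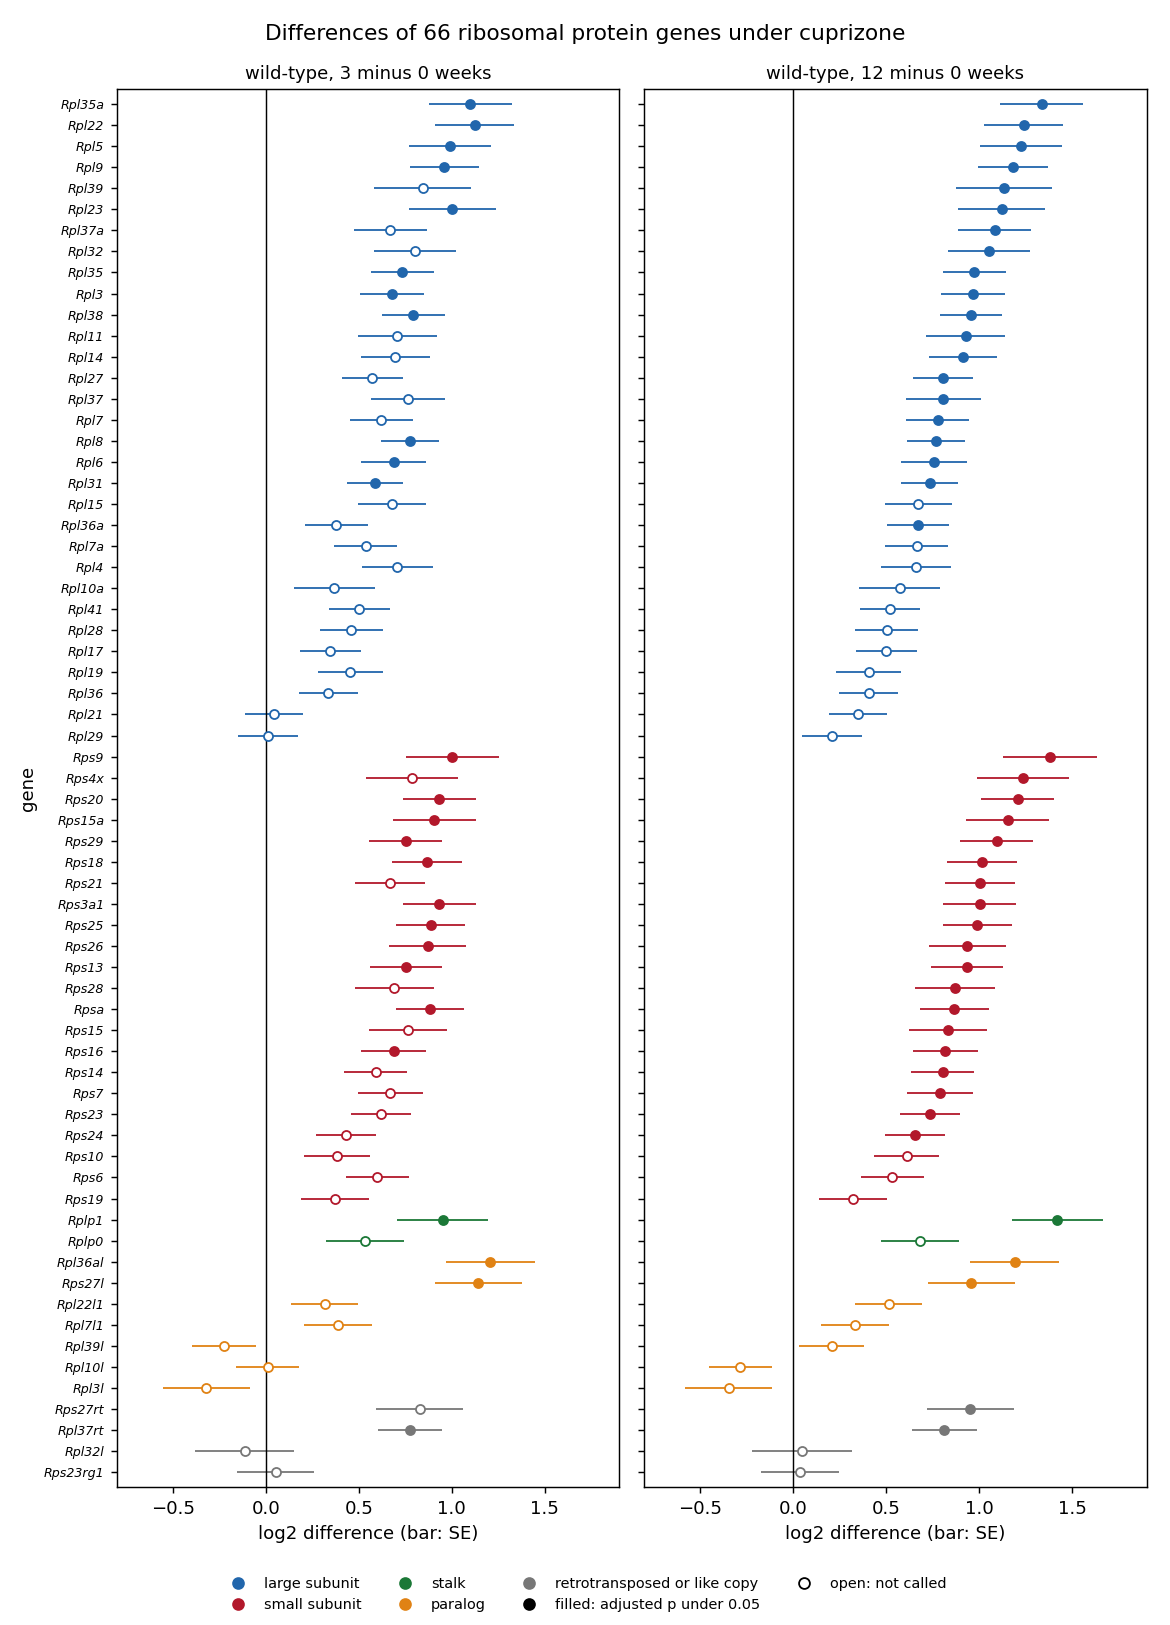
Log2 difference from wild-type 0 weeks for each of the 66 genes at 3 weeks and at 12 weeks of cuprizone, grouped by subunit and kind, with standard errors; filled points passed the test. All 55 canonical genes lie above 0 at both times, and the paralogs spread from Rpl3l at -0.35 to Rpl36al at 1.21.

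Rplp1 had the largest difference at 12 weeks. It was at 10.31, 10.60 and 10.45 in the 12-week arrays and at 8.78, 9.03 and 9.29 in the 0-week arrays (log2 difference 1.42, SE 0.24, adjusted p = 0.00796). Rps9 was at 8.73, 9.23 and 9.10 at 12 weeks and at 7.73, 7.46 and 7.73 at 0 weeks (log2 difference 1.38, SE 0.25, adjusted p = 0.00982). In both genes the lowest 12-week array was well above the highest 0-week array. Rpl35a was at 9.48, 10.02 and 9.57 at 12 weeks and at 8.27, 8.35 and 8.44 at 0 weeks (log2 difference 1.34, SE 0.22, adjusted p = 0.00664). Rpl22 was at 8.66, 8.99 and 8.69 at 12 weeks and at 7.59, 7.56 and 7.47 at 0 weeks (log2 difference 1.24, SE 0.21, adjusted p = 0.00771). Rps4x, the X-linked form of a small subunit protein, was at 8.66, 9.43 and 9.12 at 12 weeks and at 7.90, 7.67 and 7.93 at 0 weeks (log2 difference 1.24, SE 0.25, adjusted p = 0.0163). All 3 genes stood apart from the 0-week arrays, and the 3-week difference of Rps4x, 0.79, did not pass (SE 0.25, adjusted p = 0.106).

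Rpl9 was at 9.57, 9.71 and 9.50 at 12 weeks and at 8.43, 8.44 and 8.37 at 0 weeks (log2 difference 1.18, SE 0.19, adjusted p = 0.00472), the smallest adjusted p of the 66. Rps20 was at 10.14, 10.48 and 10.27 at 12 weeks, against 8.95, 9.14 and 9.18 at 0 weeks (log2 difference 1.21, SE 0.20, adjusted p = 0.00539). Both genes stood clear of the 0-week arrays in every 12-week array. Rpl5 (1.23, SE 0.22, adjusted p = 0.00924) and Rps15a (1.15, SE 0.22, adjusted p = 0.0138) rose as well, and so did Rpl11, the partner of Rpl5 in binding Mdm2 (0.93, SE 0.21, adjusted p = 0.0301). Rpl38, whose loss in mice changes the translation of Hox messenger RNAs, rose by 0.96 (SE 0.17, adjusted p = 0.00871). The 18 genes called at 12 weeks and not at 3 weeks were Rpl7, Rpl11, Rpl14, Rpl27, Rpl32, Rpl36a, Rpl37, Rpl37a, Rpl39, Rps4x, Rps7, Rps14, Rps15, Rps21, Rps23, Rps24, Rps27rt and Rps28.

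The 15 canonical genes that passed at neither time were Rps6, Rps10, Rps19, Rplp0, Rpl4, Rpl7a, Rpl10a, Rpl15, Rpl17, Rpl19, Rpl21, Rpl28, Rpl29, Rpl36 and Rpl41. Rpl29, also known as a heparan sulfate interacting protein, had the smallest canonical differences. It was at 9.57, 9.44 and 9.35 at 0 weeks, at 9.47, 9.55 and 9.38 at 3 weeks and at 9.63, 9.76 and 9.59 at 12 weeks. The 3-week and 0-week values interleaved (log2 difference 0.01, SE 0.16, adjusted p = 0.982), and the 12-week difference was 0.21 (SE 0.16, adjusted p = 0.618). Rps6 at 12 weeks was at 9.89, 10.01 and 9.91, above all 0-week arrays, with a difference of 0.53 (SE 0.17, adjusted p = 0.131). Rps19, the gene most often mutated in that anaemia in people, was at 7.48, 7.84 and 7.26 at 12 weeks and at 7.08, 7.19 and 7.34 at 0 weeks, with overlap (log2 difference 0.32, SE 0.18, adjusted p = 0.444).

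At 12 weeks the count also moved with single arrays. It was 8 without replicate 1 or replicate 2 at 0 weeks and 31 without replicate 3 at 0 weeks. Without replicates 1, 2 and 3 at 12 weeks it was 39, 2 and 19, and the median stayed between 0.76 and 0.89. Rpl9 and Rps20 were the 2 genes that passed in all 6 fits. For these fits, too, calls over all genes are not given here.

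**Figure D3:**
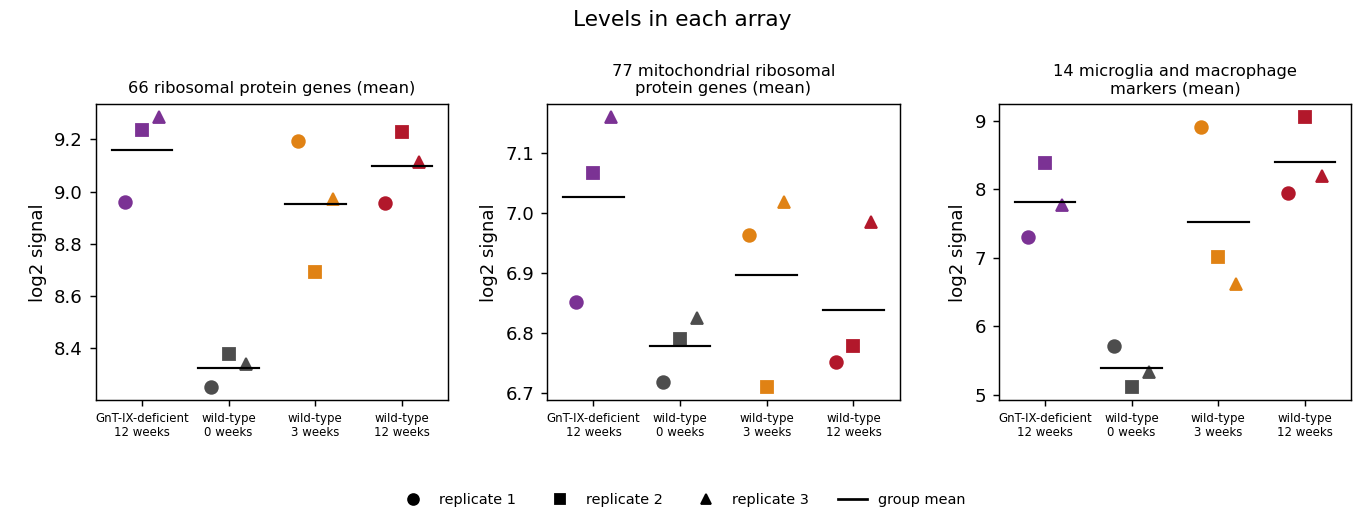
For each of the 12 arrays, by group, the mean log2 level of the 66 ribosomal protein genes, of 77 mitochondrial ribosomal protein genes and of 14 microglia and macrophage markers, with lines at the group means and a scale of its own in each panel. The 66 genes lie between 8.69 and 9.28 in the cuprizone arrays and between 8.25 and 8.38 at 0 weeks, the mitochondrial set stays between 6.71 and 7.16 throughout, and microglial markers span 5.12 to 9.05.

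Taken per array, the mean of the 66 genes was 8.25, 8.38 and 8.34 at 0 weeks, 9.20, 8.69 and 8.97 at 3 weeks and 8.96, 9.23 and 9.11 at 12 weeks. All cuprizone arrays were above all 0-week arrays. In each of the 6 wild-type cuprizone arrays, 55 to 62 of the 66 genes exceeded their 3 values at 0 weeks. That count was not made over all genes, so it cannot be set against a share of all genes. At 12 weeks the microglial marker means, 7.95, 9.05 and 8.19, ran in the same order as the ribosomal means. At 3 weeks replicate 1 was highest in both, with a microglial mean of 8.91, while replicate 3 had the lowest microglial mean, 6.62, and replicate 2, at 7.02, the lowest ribosomal mean. With the microglial mean of each array in the fit, the median difference was 0.32 at both times, and 0 members were called. At 3 and 12 weeks, 58 and 60 members lay above 0. Over all 19505 genes, this fit called 3 at 3 weeks and 0 at 12 weeks, with medians of 0.007 and 0.023. At an unadjusted p under 0.05 there were then 3 members higher and 1 lower at 3 weeks, and 0 at 12 weeks. In either direction, 1418 and 863 of all 19505 genes passed that threshold in this fit. The microglial term raised the standard errors 1.53-fold at 3 weeks and 1.94-fold at 12 weeks. The marker means at 0 weeks lie below those of all other arrays, and those of the other 3 groups overlap.

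Paralogs and copies differed among themselves. A paralog can replace its canonical protein in some tissues, and 2 of the 7 rose at each time. Rpl36al, the autosomal paralog of the X-linked Rpl36a, was at 6.29, 6.64 and 6.58 at 0 weeks, at 7.96, 7.26 and 7.91 at 3 weeks and at 7.36, 7.89 and 7.83 at 12 weeks. It rose by 1.21 at 3 weeks (SE 0.24, adjusted p = 0.0138) and by 1.19 at 12 weeks (SE 0.24, adjusted p = 0.0177), with no overlap with the 0-week arrays. Its near-identical canonical copy Rpl36a had differences of 0.38 (SE 0.17, adjusted p = 0.272) and 0.67 (SE 0.17, adjusted p = 0.0465), and probes may be shared between such copies, so the split between them is uncertain.

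Rps27l, a paralog of Rps27 known as a p53 target, was at 7.79, 7.80 and 8.28 at 0 weeks, at 9.42, 8.57 and 9.31 at 3 weeks and at 8.60, 9.02 and 9.12 at 12 weeks. It rose by 1.14 at 3 weeks (SE 0.23, adjusted p = 0.0163) and by 0.96 at 12 weeks (SE 0.23, adjusted p = 0.0416), and no 3-week or 12-week array overlapped the 0-week arrays. Rpl22l1, which Rpl22 represses in mice, was at 7.80, 7.43 and 7.71 at 0 weeks, at 8.12, 7.78 and 7.99 at 3 weeks and at 8.07, 8.19 and 8.22 at 12 weeks. Its differences of 0.32 (SE 0.18, adjusted p = 0.425) and 0.51 (SE 0.18, adjusted p = 0.172) did not pass, while those of Rpl22 were 1.12 and 1.24; the gap between the pair was not tested.

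The other paralogs gave no call. Rpl3l, the form of heart and skeletal muscle, had differences of -0.32 and -0.35 at 3 and 12 weeks. Rpl10l, which takes over from Rpl10 in male germ cells, had 0.01 and -0.28, and the testis paralog Rpl39l -0.22 and 0.21. Rpl39l is dim, the only member with a mean below the lower quartile of the arrays, and Rpl3l was little brighter. Rpl7l1, a nucleolar relative of Rpl7, had 0.39 and 0.33. Among the copies, Rpl37rt rose at both times (0.78 and 0.81, adjusted p = 0.0233 and 0.0219) and Rps27rt at 12 weeks (0.95, SE 0.24, adjusted p = 0.0442). Both may share probes with their parent genes. Rpl32l and Rps23rg1 stayed between -0.11 and 0.05 without a call.

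**Figure D4:**
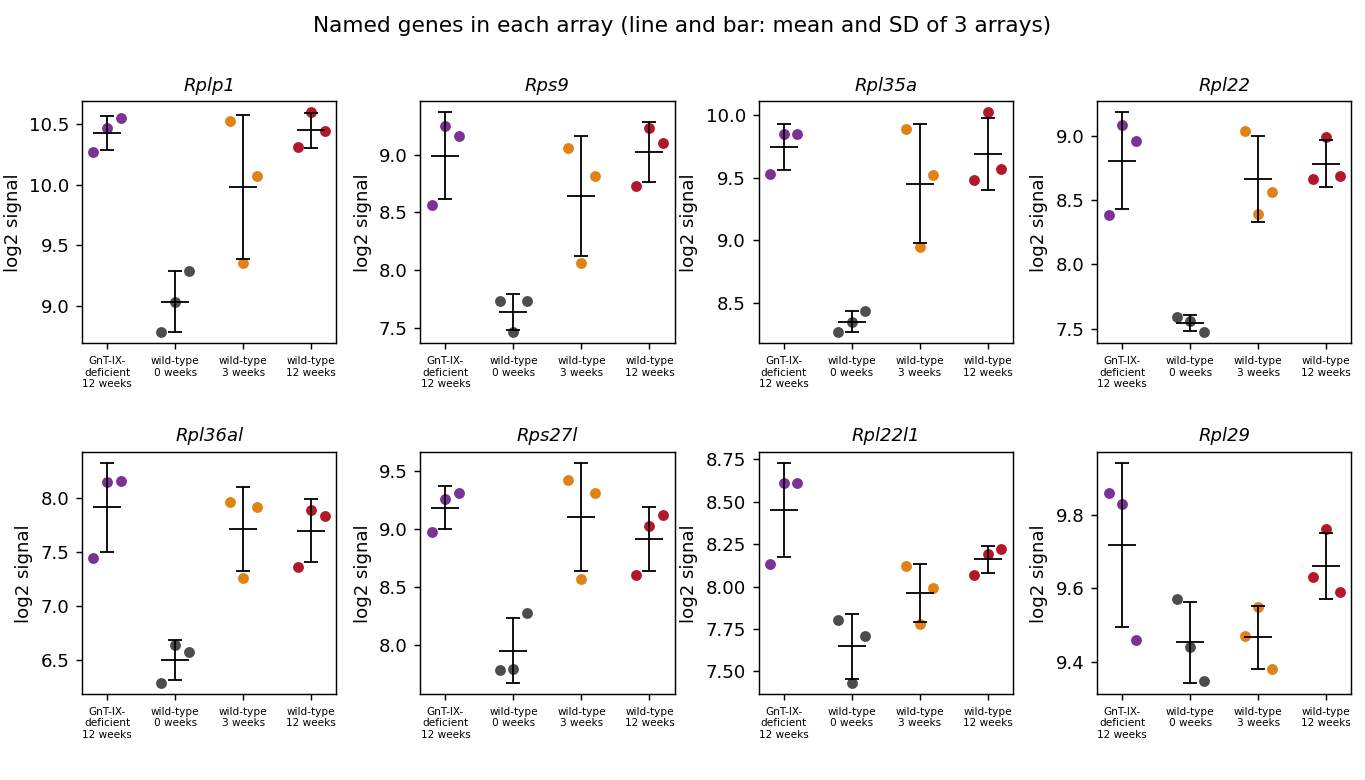
Log2 level per array of Rplp1, Rps9, Rpl35a, Rpl22, Rpl36al, Rps27l, Rpl22l1 and Rpl29 in the 4 groups, with the mean and SD of 3 arrays. Rplp1, Rps9, Rpl35a, Rpl22, Rpl36al and Rps27l are higher in every cuprizone array than in any 0-week array, and Rpl29 overlaps between 3 and 0 weeks.

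Between 12 and 3 weeks, 0 members passed with limma, where 0.0256% of all genes rose and 0.082% changed in either direction. The median difference was 0.15, 53 members lay above 0, and 3 (Rpl10a, Rpl21 and Rpl29) did not overlap in the higher direction, where 7.83% of all genes did. At an unadjusted p under 0.05, where 5.69% of all genes were higher, there was 1, Rpl39l, with a difference of 0.43 (SE 0.17, adjusted p = 0.356). Rplp1 was 0.47 higher at 12 weeks (SE 0.24, adjusted p = 0.49) and Rpl37a 0.41 higher (SE 0.20, adjusted p = 0.445). Rplp1 was at 10.31, 10.60 and 10.45 at 12 weeks and at 10.53, 9.35 and 10.07 at 3 weeks, so the groups overlapped. Standard errors of single genes were 0.15 to 0.27. The calls at 12 weeks that were absent at 3 weeks are therefore not shown to differ between these times.

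Between GnT-IX-deficient and wild-type cells at 12 weeks, 0 of the 66 passed with limma, where 0.0205% of all genes rose and 0.0256% changed in either direction. An unadjusted p under 0.05 in the higher direction was found for 0 members and 3.65% of all genes, and higher values without overlap for 0 members and 5.27% of all genes. The median difference was 0.06, with 49 members above 0 and a range of -0.29 to 0.35. Rplp1 was at 10.27, 10.47 and 10.55 in GnT-IX-deficient arrays and at 10.31, 10.60 and 10.45 in wild-type arrays (log2 difference -0.02, SE 0.24). Rps9 was at 8.56, 9.25 and 9.16 in GnT-IX-deficient arrays and at 8.73, 9.23 and 9.10 in wild-type arrays (log2 difference -0.03, SE 0.25). The values of both genotypes interleave.

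The genes with the smallest p between the genotypes were mostly paralogs and copies. Rps23rg1 was at 6.22, 6.16 and 5.50 in GnT-IX-deficient arrays and at 5.50, 5.74 and 5.60 in wild-type arrays (log2 difference 0.35, SE 0.21, adjusted p = 0.769). Rpl22l1 was at 8.13, 8.61 and 8.61 in GnT-IX-deficient arrays and at 8.07, 8.19 and 8.22 in wild-type arrays (log2 difference 0.29, SE 0.18, adjusted p = 0.778). Rps27l differed by 0.27 (SE 0.23, adjusted p = 0.839) and Rpl39l by -0.29 (SE 0.17, adjusted p = 0.769). Of the markers of other cells, 0 of 10 choroid plexus, 0 of 9 ependymal and 0 of 14 microglial genes were called between the genotypes with limma. At an unadjusted p under 0.05, 8, 8 and 0 of them were higher, against 3.65% of all genes. Choroid plexus markers averaged 7.86, 6.98 and 5.39 in GnT-IX-deficient arrays and 4.89, 5.16 and 4.36 in wild-type arrays at 12 weeks, without overlap. Ependymal markers averaged 7.15, 8.31 and 7.81 in GnT-IX-deficient arrays and 7.07, 6.63 and 6.62 in wild-type arrays, also without overlap. Microglial markers averaged 7.30, 8.38 and 7.77 in GnT-IX-deficient arrays and 7.95, 9.05 and 8.19 in wild-type arrays, with overlap. With the choroid plexus mean in the fit, the median difference of the 66 genes was 0.17 and that of Rps23rg1 was -0.074, and with the microglial mean the median was 0.15; 0 members were called in either fit. The ependymal mean was not tried as a covariate.

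Lists of other translation genes are given by their counts. At 3 and 12 weeks, 23 and 40 of the 55 canonical ribosomal protein genes rose, and 1.61% and 2.11% of all genes. At an unadjusted p under 0.05, 8.81% and 8.21% of all genes were higher at these times. Differences between lists were not tested, and all but the mitochondrial list hold few genes. Elongation factors carry transfer RNA to the ribosome and move it along. Their list, which also holds Eef1e1 and Eef2k, not themselves such factors, had 3 of 8 rises at 3 weeks (median 0.68). At 12 weeks it had 4 of 8 (median 0.72). Eef1b2, a subunit of the exchange factor that reloads Eef1a1, was at 7.52, 7.88 and 7.66 at 12 weeks and at 5.93, 6.33 and 6.70 at 0 weeks (log2 difference 1.37, SE 0.26, adjusted p = 0.014). The groups did not overlap. Eef1a1, which delivers transfer RNA, rose by 0.70 and 0.64 at 3 and 12 weeks (adjusted p = 0.0219 and 0.0378). Eef1g (0.93, adjusted p = 0.0177) and Eef1d (0.82, adjusted p = 0.0279), further exchange factor subunits, rose at 12 weeks. Eif5a, which helps the ribosome past stalling peptides, rose at 3 weeks (0.73, adjusted p = 0.0474).

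Other genes with TOP messenger RNAs gave 2 rises of 9 at each time, with medians of 0.58 and 0.71. Pabpc1, the cytoplasmic poly(A)-binding protein, was at 10.35, 10.96 and 10.51 at 12 weeks and at 9.33, 9.33 and 9.43 at 0 weeks (log2 difference 1.24, SE 0.20, adjusted p = 0.00564), and Tpt1 rose by 1.06 (SE 0.23, adjusted p = 0.0224). At 3 weeks they rose by 1.09 and 0.94. The 10 initiation factors with TOP messenger RNAs gave 0 calls at either time (medians 0.50 and 0.52), with 5 higher and 0 lower at an unadjusted p under 0.05 each time. Fau, which encodes a small subunit protein fused to a ubiquitin-like one, rose at 12 weeks (1.06, SE 0.23, adjusted p = 0.0236).

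**Figure D5:**
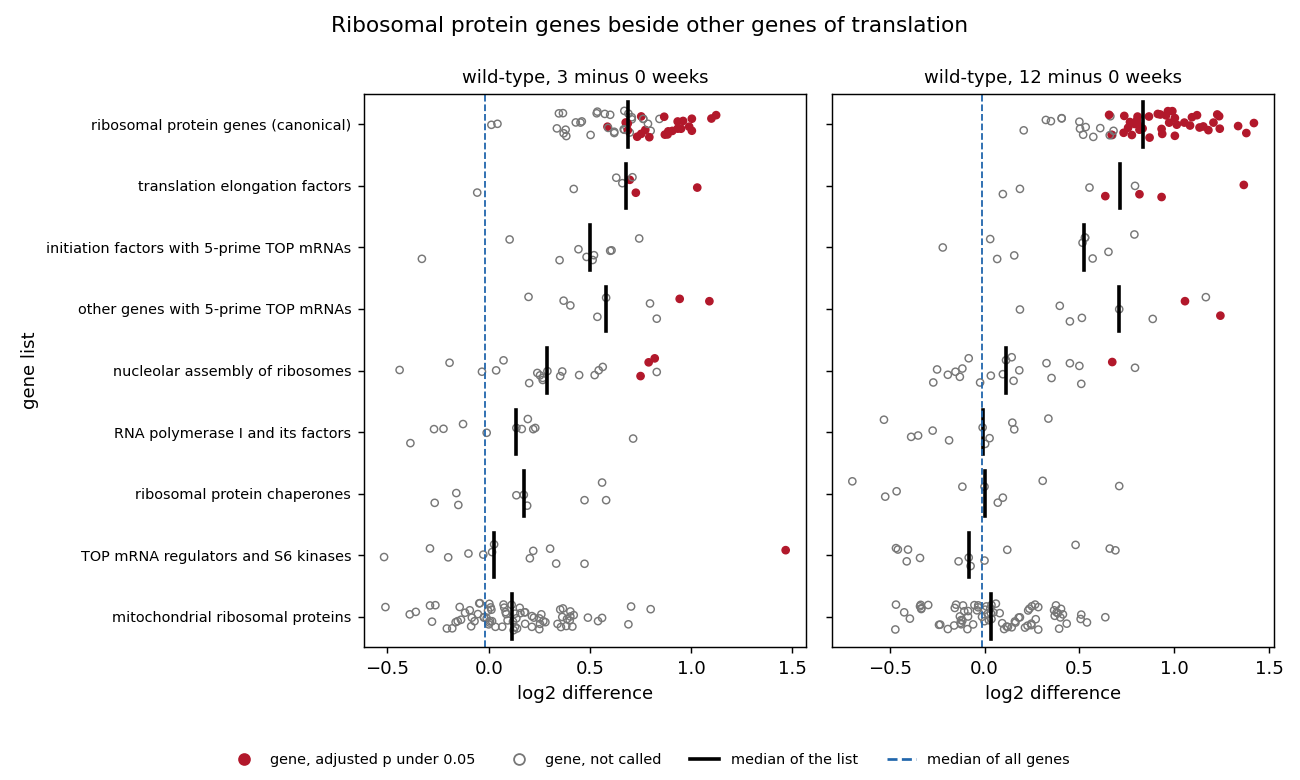
Log2 difference from wild-type 0 weeks at 3 and at 12 weeks for the genes of each translation list, as points (filled where they passed the test), with the list's median and, dashed, that of all genes. The 55 canonical cytosolic ribosomal protein genes have medians of 0.69 and 0.83, and the 77 mitochondrial ribosomal protein genes 0.11 and 0.04.

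The mitochondrial ribosomal protein genes had 0 of 77 calls at each time, with medians of 0.11 and 0.04. At an unadjusted p under 0.05, 7 and 3 were higher and 1 and 3 lower. Of all genes, 8.81% and 8.21% were higher at that threshold. Between the genotypes the mitochondrial median was 0.20, with 0 calls. There 10 of the 77 were higher and 0 lower at an unadjusted p under 0.05, where 3.65% of all genes were higher. Nucleolar assembly factors had 3 of 21 rises at 3 weeks (median 0.29) and 1 at 12 weeks (median 0.11). Ncl, the nucleolar protein nucleolin, rose by 0.82 and 0.67 (adjusted p = 0.0143 and 0.041), and at 3 weeks so did Pes1, a factor of large subunit assembly (0.79, adjusted p = 0.0233), and Mrto4, which holds the place of the stalk during assembly (0.75, adjusted p = 0.0288). RNA polymerase I, which makes ribosomal RNA, had 0 of 11 calls at each time (medians 0.14 and -0.01), with 1 and 0 higher and 0 and 1 lower at an unadjusted p under 0.05. Chaperones of ribosomal proteins had 0 of 9 calls at each time (medians 0.17 and 0.00), with 2 and 1 higher and 0 and 3 lower at an unadjusted p under 0.05.

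Of 13 regulators of TOP messenger RNAs and S6 kinases, Myc, a transcription factor that drives ribosome production, rose at 3 weeks (1.47, SE 0.36, adjusted p = 0.0376), and 0 were called at 12 weeks, with 1 higher and 3 lower at an unadjusted p under 0.05; the medians were 0.03 and -0.08. In the Mdm2 and p53 list, which responds to free Rpl5 and Rpl11 among other signals, 4 of 8 rose at 3 weeks: Cdkn1a by 3.28, Eda2r by 2.20, Ccng1 by 1.46 and Mdm2 by 0.75, with adjusted p of 0.0033, 0.000242, 0.00165 and 0.0487. At 12 weeks 1 of 8 was called, Cdkn1a, by 2.13 (adjusted p = 0.0369). Eda2r was lower at 12 than at 3 weeks (log2 difference -1.63, SE 0.21, adjusted p = 0.0199). Of 7 genes of ribosome rescue, 0 were called at 3 weeks, with 1 higher and 0 lower at an unadjusted p under 0.05, and at 12 weeks Map3k20, a kinase that senses colliding ribosomes, rose by 0.88 (SE 0.16, adjusted p = 0.00977).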

How the data were processed

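Arrays of 3 biological replicates in each of 4 groups were analysed. The authors used RMA in Affymetrix Expression Console 1.4, per the submitters' processing notes, and deposited log2 intensities. RMA brings the arrays to a like distribution, so a rise of very many genes at once would be partly removed. Array medians were 5.38 to 5.45. The files' genome build is not given.

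Of 22206 transcript clusters, 19572 had 1 symbol (all matched to RefSeq by Entrez identifier) and 2634 were unnamed and left out. The brightest cluster stood for each of 55 genes with several. No filter on dim genes was set, and all 66 members stayed in. limma 3.58.1 in R 4.3.3 fitted 1 mean per group to all 12 arrays, two-sided, adjusted over 19505 genes. The test was tried on simulated data in each of the 4 comparisons. It recovered 0.0% to 12.0% of genes changed by a log2 difference of 0.7, and 54.0% to 65.0% at 1.0. A gene that did not pass is therefore not shown to be unchanged. The simulated changed genes were drawn at random and not matched to these data. Figures were drawn with matplotlib 3.10.9.

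Named genes were, in each comparison, at most 10 risen and 10 fallen members past the threshold, by size of the difference. Where fewer than 10 passed, those of smallest p were taken. Added to these were the stalk genes, Rpsa, Rps6, all paralogs, the brightest, dimmest and most variable members, up to 4 called genes per pathway list, and Mgat5b, Slc1a3, Gfap and Tyrobp as checks. Rpl11, Rpl38, Rps19, Rpl29 and the other genes given beyond it were chosen after their values were seen. The members, lists and tests were chosen with earlier results of these data known. Alternatives varied the normalization, dim genes, the variance model, clusters per gene, array weights, which arrays were fitted, a replicate block, marker covariates, the paralogs and each array in turn. Leaving out the further copies as well was added after seeing the data.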

Additional observations from a re-analysis of the deposited data

How the results depend on the processing

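Other normalizations, leaving out dim genes, averaging clusters, a trended robust variance and leaving out paralogs or copies kept the counts of called members within 1.5 times of 26 at 3 weeks and 44 at 12 weeks. At 3 weeks, array weights gave 42, fitting only the 6 arrays compared 15 and the replicate block 16. Under the microglial covariate the count was 0 at 3 and at 12 weeks and the median 0.32 at both. Of all genes, 3 and 0 were called in that fit, and the marker means move with the groups. Leaving out one array gave 1 to 39 calls at 3 weeks and 2 to 39 at 12 weeks, from fewer arrays, with medians of 0.56 to 0.84 and 0.76 to 0.89. Apart from the microglial covariate, calls over all genes under the alternatives are not given here. Between 12 and 3 weeks, and between the genotypes, the count was 0 under every alternative run, with leave-one-out medians of 0.02 to 0.27 and -0.003 to 0.15; between the genotypes the choroid plexus covariate gave a median of 0.17 and the microglial one 0.15, beside 0.06. Over all alternatives for single named genes, the call was kept with its direction in 98 cases and lost with the direction kept in 52 at 3 weeks, and in 122 and 28 cases at 12 weeks. Rps23rg1 between the genotypes turned to -0.074 with the choroid plexus covariate; the cause was not tested. The labels do not say whether replicate numbers pair the samples. Deviations from the group means correlated at -0.28 to 0.22 in 18 same-numbered pairs, with 6 over 0.1. The median was 0.048, beside -0.041 in other pairs. With 3 arrays per group, these correlations cannot settle whether samples were paired. The replicate block gave 16 calls at 3 weeks and 36 at 12 weeks. Signal over background was not measured, which limits what the dim members Rpl39l, Rpl3l and Rpl39 can show. Rpl39, called at 12 weeks, averaged 3.81 at 0 weeks, below the mean lower quartile of those arrays, 3.88.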

Other observations

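Of the symbols that the name rule left out, Rpl31-ps12, named as a pseudogene of Rpl31, moved with the members. It was at 9.67, 9.63 and 9.65 at 0 weeks, at 10.55, 10.15 and 10.25 at 3 weeks and at 10.39, 10.52 and 10.43 at 12 weeks. It rose by 0.67 at 3 weeks (limma, SE 0.16, adjusted p = 0.0366) and by 0.80 at 12 weeks (SE 0.16, adjusted p = 0.0185). Rpl31 itself had differences of 0.59 and 0.73, and probes may be shared between the pair. Tyrobp, a microglial gene, had differences of 3.09 and 4.33 at the same times, and Gfap, the filament protein of reactive astrocytes, 1.97 and 2.28.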
